A study of Mus musculus with 12 samples.

Results

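The 9 genes described here encode the hypoxia-inducible transcription factor HIF-1, the enzymes that read oxygen for it, the protein that marks it for destruction, and a pair of its target genes. They were Hif1a and Arnt (the HIF-1 subunits), Egln1, Egln2 and Egln3 (prolyl hydroxylases), Hif1an (an asparagine hydroxylase), Vhl (a ubiquitin ligase subunit), and Bnip3 and Ddit4 (targets). Members were the rows whose gene symbol equalled 1 of these names, and each name matched a single row of the 23361 symbols in the expression tables. RNA-seq asked whether earlier IL-4 exposure alters what LPS does to macrophage gene expression. Bone marrow-derived macrophages (BMDMs) were grown for 6 days with L929 cell supernatant, a source of the growth factor M-CSF, from wild-type C57BL/6 mice aged 8 to 12 weeks. The groups were control (no added stimulus), IL-4 (20 ng/ml for 24 h), LPS (100 ng/ml for 3 h) and IL-4+LPS (24 h of IL-4, with 3 h of LPS), with 3 samples in each of the 4 groups and no mutant allele in any. The LPS dose is that of the labels, and the methods of the study state it in a molar unit. The cytokine IL-4 polarizes macrophages toward the alternative state, whereas LPS, from the outer wall of bacteria, provokes inflammation.

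As background, HIF-1 is a dimer of an oxygen-sensitive alpha subunit and a stable partner, ARNT, and it switches on genes for glycolysis, vessel growth and survival at low oxygen. When oxygen is present, EGLN enzymes hydroxylate prolines of the alpha subunit, VHL binds the modified protein, and the proteasome degrades it, while HIF1AN hydroxylates an asparagine that otherwise recruits the coactivators p300 and CBP. Inflammatory macrophages also make more Hif1a mRNA when oxygen is plentiful. The data are mRNA levels, so hydroxylation, protein amount and HIF-1 activity were not measured.

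All 9 members reached 1 FPKM (sequenced fragments per length of transcript, relative to all mapped fragments of the sample) in at least 1 sample and were among the 11191 rows tested. Of these, 7 were at 1 FPKM or more in every sample, while Egln3 passed only through the IL-4+LPS group and Ddit4 only through the LPS group. Egln3 and Ddit4 therefore had to differ between groups in order to be tested, and they are kept apart in the counts. In RNA from whole cultures, fewer cells of a type and less RNA per cell cannot be told apart.

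The letters of the promoters are shown for the 5 members whose LPS response differed between naive and IL-4-pretreated cells, because several of them are known HIF-1 targets. They are the 250 bases before the RefSeq start site in GRCm38.p6 (the mm10 build), read 5′ to 3′ along the strand of the gene. Capitals mark ACGTG, the core of the hypoxia response element, found on either strand. Where the capitals read CACGTG, the core lies on both strands and the letters are also an E-box.
Hif1a promoter, chr12:73907617-73907866, plus strand: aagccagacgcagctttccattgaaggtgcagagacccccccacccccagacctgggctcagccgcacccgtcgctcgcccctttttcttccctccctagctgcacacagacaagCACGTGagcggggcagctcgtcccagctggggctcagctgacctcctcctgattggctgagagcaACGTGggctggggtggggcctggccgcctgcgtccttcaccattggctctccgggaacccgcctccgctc
Egln1 promoter, chr8:124949255-124949504, minus strand: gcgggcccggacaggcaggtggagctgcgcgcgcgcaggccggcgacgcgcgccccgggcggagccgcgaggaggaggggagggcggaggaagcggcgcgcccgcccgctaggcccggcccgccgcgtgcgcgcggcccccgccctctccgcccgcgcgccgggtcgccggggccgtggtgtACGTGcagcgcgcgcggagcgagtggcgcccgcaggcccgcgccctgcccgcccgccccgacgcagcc
Egln3 promoter, chr12:54203875-54204124, minus strand: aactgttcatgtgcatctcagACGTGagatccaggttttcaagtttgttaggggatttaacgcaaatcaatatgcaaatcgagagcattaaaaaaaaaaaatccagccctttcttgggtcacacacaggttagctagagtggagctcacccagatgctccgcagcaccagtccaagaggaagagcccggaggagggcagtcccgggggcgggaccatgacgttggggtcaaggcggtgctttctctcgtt
Bnip3 promoter, chr7:138909507-138909756, minus strand: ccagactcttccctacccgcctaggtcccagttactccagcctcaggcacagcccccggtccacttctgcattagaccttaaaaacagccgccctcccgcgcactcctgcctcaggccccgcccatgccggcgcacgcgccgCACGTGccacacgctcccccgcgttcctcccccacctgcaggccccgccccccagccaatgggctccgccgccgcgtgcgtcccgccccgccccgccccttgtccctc
Ddit4 promoter, chr10:59951771-59952020, minus strand: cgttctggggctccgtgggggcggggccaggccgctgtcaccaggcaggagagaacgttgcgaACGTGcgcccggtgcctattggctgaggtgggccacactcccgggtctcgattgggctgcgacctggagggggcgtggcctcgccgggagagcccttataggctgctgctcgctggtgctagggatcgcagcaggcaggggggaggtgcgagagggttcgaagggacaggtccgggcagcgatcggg
In a window of 250 bases before to 50 bases after the start site, these 5 genes and Egln2 held the core, and Arnt, Vhl and Hif1an did not. The Hif1a promoter held CACGTG from 135 bases and ACGTG from 70 bases before the start. The core lay 68 bases before the start in Egln1, 229 in Egln3, 108 in Bnip3 and 187 in Ddit4. Of 32851 RefSeq promoters of the same length, 19.6% held ACGTG on either strand. Counted by gene, as the members are, the share was 21.8% of 27025. Egln2 held the core in 1 of its 2 promoters. The shares are not matched for GC content, which ran from 54.7% (Egln3) to 86.0% (Egln1) in the members' windows with the core. A spaced palindrome of the kind STAT6 binds (TTC and GAA with any 4 bases between) began 235 bases before the Hif1a start as TTCCATTGAA and 183 bases before the Hif1an start, and 6.95% of all promoters held one. Letters of the NF-kappaB type (GGG and TTTCC with any 2 bases between), searched on both strands, were in none of the members' windows and in 1.63% of all promoters. These matches describe letters, and binding was not measured here.

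Differences are given on the log2(FPKM + 1) scale from a limma model over all 12 samples, with p-values adjusted over the 11191 rows of a contrast (Benjamini-Hochberg) and a threshold of 0.05. A change is called where it passed. FPKM totals per sample lay between 457583 and 495025, and relative sequencing depth spanned 0.993 to 3.304 with control replicate 1 set to 1. LPS moved most of the table: the median row shifted by -0.44 between LPS and control and by -0.41 between IL-4+LPS and IL-4. Scaling each sample to a common median reduced these shifts to -0.11 and -0.08, and it raised the higher share of calls from 22.6% to 42.4% and from 20.6% to 43.3%. Small decreases after LPS therefore depend on the scale, and each is set against that shift. The shift was -0.03 between IL-4+LPS and LPS. All 7 listed macrophage markers reached 1 FPKM, with a summed level of 19233 to 20599 FPKM in control, 7571 to 7785 with IL-4, 15468 to 16697 with LPS and 6567 to 6954 with both. Granulocyte markers (6 of 6 with a row reached 1 FPKM) summed to 325 to 862, 217 to 406, 514 to 1037 and 430 to 851 FPKM in the same order. B cell, fibroblast and erythroid markers stayed under 1 FPKM throughout, and of the T cell, dendritic and mast cell lists 1 gene each reached it (Cd4, Zbtb46 and Mcpt8). Cd3e and Cd3d, which define T cells, were at or near 0. Most of the macrophage sum was Lyz2 (lysozyme), and the other 6 macrophage markers summed to 3889 to 4091, 2652 to 2951, 3003 to 3262 and 2361 to 2448 FPKM. Of these, Emr1 (-1.14), Csf1r (-0.53), Itgam (-0.50), Mertk (-1.40) and Fcgr1 (-1.94) were called lower with IL-4 than in control. Cd68 was not called (-0.21, adjusted p = 0.14). After both stimuli, against LPS, Fcgr1 (-2.44), Lyz2 (-1.58), Emr1 (-0.80), Itgam (-0.49) and Csf1r (-0.44) were called lower. In that comparison Mertk was called higher (0.79) and Cd68 was not called (0.06). Zbtb46 and Mcpt8 reached 1 FPKM in IL-4+LPS samples alone and were called higher there than with LPS (1.16 and 0.66). The part of these markers in the results below was not tested. The study describes separate animals and experiments, but the labels do not say which sample came from which, so p-values measure the spread between these samples.

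**Figure D1:**
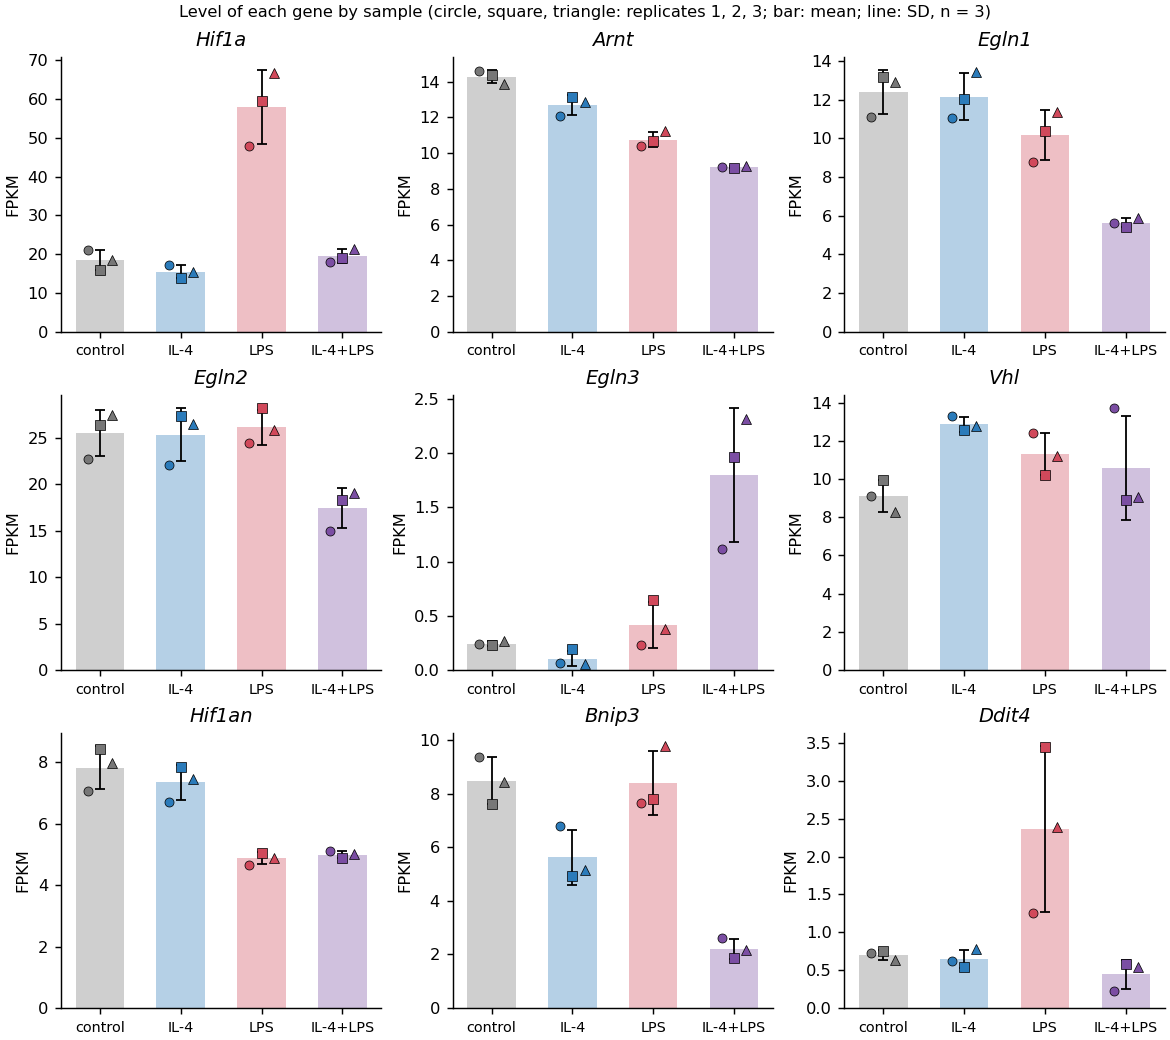
Level of each of the 9 members in FPKM (vertical axes from 0, each panel on its own scale) in the 12 samples, by group. Bars are means, lines are SDs (n = 3), and circles, squares and triangles are replicates 1, 2 and 3. Hif1a was at 47.9 FPKM or more in the LPS samples and at 21.5 FPKM or less elsewhere, and Egln3 exceeded 1 FPKM in the IL-4+LPS samples alone.

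Hif1a (chr12:73907867-73947530, plus strand), which encodes the oxygen-sensitive subunit, was the member that LPS raised most in FPKM. It stood at 21.0, 16.0 and 18.6 FPKM in control replicates 1 to 3, 17.3, 13.8 and 15.4 with IL-4, 47.9, 59.4 and 66.7 with LPS, and 17.9, 19.2 and 21.5 with IL-4+LPS. Every LPS sample lay above every other sample, and the IL-4+LPS samples overlapped the control samples. Mean FPKM rose 3.13-fold from control (18.5 ± 2.52, SD, n = 3) to LPS (58.0 ± 9.47), a log2 change of 1.59 ± 0.14 (SE), adjusted p = 2.18e-06. After IL-4, LPS moved Hif1a from 15.5 ± 1.73 to 19.5 ± 1.80 FPKM, a log2 difference of 0.32 that missed the threshold (adjusted p = 0.0589) although the groups did not overlap. Leaving out IL-4 replicate 1, LPS replicate 1 or LPS replicate 3 brought that difference past the threshold (lowest adjusted p = 0.0327), and median scaling gave 0.71 (adjusted p = 0.00185). Hif1a was 2.97-fold lower after both stimuli than after LPS alone (log2 -1.51 ± 0.14, adjusted p = 1.8e-05). IL-4 by itself gave a difference of -0.24 (95% interval -0.54 to 0.07). The LPS response after IL-4 was smaller than without it by 1.28 ± 0.19 (log2 difference -1.28, adjusted p = 0.00262). Of the 50-base words of its longest transcript, 7.25% occur in other genes, namely the antisense Gm15283 and the overlapping Gm49321. The counting is not stated to use strand, so reads of an overlapping gene cannot be told apart from those of Hif1a.

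Arnt (chr3:95434390-95497239, plus strand), the stable partner subunit, moved far less than Hif1a. Its levels were 14.6, 14.4 and 13.9 FPKM in control, 12.1, 13.1 and 12.9 with IL-4, 10.4, 10.7 and 11.2 with LPS, and 9.21, 9.14 and 9.28 with IL-4+LPS. The groups did not overlap and descended in that order. LPS gave -0.38 ± 0.06 without IL-4 (adjusted p = 0.000154) and -0.42 ± 0.06 after IL-4 (adjusted p = 8.11e-05), but these lie 0.06 above and 0.02 below (-0.02) the median row, and median scaling gave 0.00 (adjusted p = 1.0) and -0.04 (adjusted p = 0.605). IL-4+LPS was lower than LPS by 0.20 (log2 difference -0.20 ± 0.06, adjusted p = 0.0231), a call lost in 4 of the 12 fits that leave out a sample (adjusted p up to 0.087). The step from control to IL-4 was -0.16 (adjusted p = 0.0538).

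The ratio of Hif1a to Arnt in FPKM, which is per length, sets the subunits side by side. It was 1.30 ± 0.17 in control, 1.23 ± 0.19 with IL-4, 5.37 ± 0.68 with LPS and 2.12 ± 0.19 with both (SD, n = 3). Control and IL-4 overlapped in this ratio, from 1.05 to 1.44, while each IL-4+LPS sample (1.95 to 2.31) lay above both and below each LPS sample (4.62 to 5.94). Being a ratio within a sample, it does not depend on the scaling between samples. The other HIF family subunits Epas1 (HIF-2 alpha), Hif3a and Arnt2 stayed under 1 FPKM and were not tested. Epas1 was at 0.471 to 0.575 FPKM in IL-4 samples and at 0.031 to 0.112 in LPS samples.

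Egln2 (chr7:27158658-27166802, minus strand), encoding the prolyl hydroxylase also named PHD1, was the most abundant of the 3 Egln mRNAs. It was at 22.8, 26.5 and 27.4 FPKM in control, 22.1, 27.4 and 26.6 with IL-4, 24.5, 28.2 and 25.9 with LPS, and 15.0, 18.3 and 19.1 with IL-4+LPS. The first 3 groups overlapped, and all IL-4+LPS samples lay below them. Mean FPKM in IL-4+LPS was 0.667 times that in LPS (log2 -0.56 ± 0.11, adjusted p = 0.0039) and 0.689 times that in IL-4 (-0.51, adjusted p = 0.00205). The comparison with IL-4 lay 0.11 below the median row (-0.11), and median scaling gave -0.11 (adjusted p = 0.399). The interaction was -0.55 ± 0.16 and missed the threshold (adjusted p = 0.061), which it passed in the fit with a replicate block, a term for the replicate number (adjusted p = 0.00244). LPS against control gave 0.04 (95% interval -0.22 to 0.29). Its exons share 11 bases with those of Cyp2t4 on the other strand.

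Egln1 (chr8:124908587-124949254, minus strand), encoding the main hydroxylase that limits HIF-1 alpha at normal oxygen, fell in the doubly treated cells. Its values were 11.1, 13.2 and 12.9 FPKM in control, 11.04, 12.0 and 13.4 with IL-4, 8.78, 10.4 and 11.4 with LPS, and 5.63, 5.44 and 5.86 with IL-4+LPS. Control, IL-4 and LPS overlapped, and the 3 IL-4+LPS samples were lower than all others. Mean FPKM was 2.15-fold lower after both stimuli than after IL-4 (log2 -0.98 ± 0.10, adjusted p = 1.15e-05) and 1.80-fold lower than in LPS (-0.74 ± 0.10, adjusted p = 0.000366). The first of these lay 0.57 below the median row (-0.57), and median scaling gave -0.61 (adjusted p = 0.000323). LPS against control gave -0.26 (adjusted p = 0.0387), a call that turned to 0.11 with median scaling and to 0.09 with quantile normalization and was lost in 6 of the 12 fits that leave out a sample. The interaction was -0.72 ± 0.15 (adjusted p = 0.0126).

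Egln3 (chr12:54178981-54203874, minus strand), encoding a hydroxylase whose gene is a known HIF-1 target, went the other way at a low level. It was at 0.235, 0.227 and 0.265 FPKM in control, 0.068, 0.189 and 0.058 with IL-4, 0.228, 0.645 and 0.376 with LPS, and 1.12, 1.97 and 2.32 with IL-4+LPS. Each IL-4+LPS sample exceeded all others, and replicate 1 was the lowest of that group. IL-4+LPS was 17.2-fold above IL-4 in mean FPKM (log2 1.32 ± 0.16, adjusted p = 3.25e-05) and 4.33-fold above LPS (0.97 ± 0.16, adjusted p = 0.00115). The log2 values understate these ratios, since 1 FPKM was added to values below 1, and a pseudocount of 0.1 gave 3.21 and 1.90. LPS without IL-4 gave 0.18 (95% interval -0.18 to 0.54), and the interaction was 1.14 ± 0.23 (adjusted p = 0.0111).

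The 3 Egln mRNAs together came to 38.2 ± 3.55 FPKM in control, 37.6 ± 3.82 with IL-4, 36.8 ± 2.96 with LPS and 24.9 ± 2.83 with both. All IL-4+LPS samples (21.8 to 27.3) were below the lowest sample of the other groups (33.2). Egln2 made up 66.9% to 71.3% of this sum as a group mean. The share of Egln3 was 0.637% ± 0.062 in control, 0.275% ± 0.178 with IL-4, 1.11% ± 0.491 with LPS and 7.10% ± 1.75 with both. Hif1a mRNA per summed Egln mRNA was 0.491 ± 0.111, 0.418 ± 0.090, 1.57 ± 0.178 and 0.785 ± 0.038 in the same order of groups. IL-4+LPS samples (0.746 to 0.823) exceeded every control and IL-4 sample in this ratio (0.349 to 0.616).

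Hif1an (chr19:44562854-44576274, plus strand), encoding the asparagine hydroxylase FIH that keeps coactivators off HIF-1 alpha, differed with LPS and not detectably with IL-4. It was at 7.07, 8.43 and 7.99 FPKM in control, 6.72, 7.84 and 7.47 with IL-4, 4.67, 5.05 and 4.89 with LPS, and 5.10, 4.87 and 5.01 with IL-4+LPS. Samples with LPS and samples without it did not overlap. LPS gave -0.59 ± 0.08 without IL-4 (1.61-fold lower, adjusted p = 5.65e-05) and -0.48 ± 0.08 after IL-4 (adjusted p = 0.00029). These lie 0.14 and 0.07 below the median row (-0.14 and -0.07), and median scaling gave -0.23 (adjusted p = 0.0126) and -0.12 (adjusted p = 0.177). IL-4+LPS against LPS gave 0.03 (95% interval -0.14 to 0.20), and the interaction was 0.11 (95% interval -0.14 to 0.36).

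Vhl (chr6:113624021-113631633, plus strand), encoding the subunit that recognises hydroxylated HIF-1 alpha, was the member that IL-4 raised. It stood at 9.11, 9.93 and 8.30 FPKM in control, 13.3, 12.6 and 12.8 with IL-4, 12.4, 10.2 and 11.2 with LPS, and 13.7, 8.91 and 9.06 with IL-4+LPS. IL-4 samples lay above all control samples, and IL-4+LPS replicate 1 stood apart from replicates 2 and 3. IL-4 raised Vhl 1.41-fold (log2 0.46 ± 0.14, adjusted p = 0.0274), a call lost in 5 of the 12 fits that leave out a sample (adjusted p up to 0.0935) and in the fit with no filter. LPS gave 0.28 (adjusted p = 0.0941) in the FPKM as deposited and 0.65 (adjusted p = 0.0016) with median scaling. Without IL-4+LPS replicate 1, Vhl was lower after both stimuli than after IL-4 (-0.47, adjusted p = 0.00122) or LPS (-0.30, adjusted p = 0.0347), and the interaction was -0.75 (adjusted p = 0.00473). With it they were -0.29 (adjusted p = 0.0897), -0.11 (adjusted p = 0.607) and -0.57 (adjusted p = 0.11). With the replicate block the interaction passed (adjusted p = 0.0468).

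Bnip3 (chr7:138890836-138909506, minus strand), a HIF-1 target that encodes a receptor for the removal of mitochondria, was the member that IL-4 lowered, and it was lowest after both stimuli. It was at 9.37, 7.62 and 8.43 FPKM in control, 6.79, 4.94 and 5.14 with IL-4, 7.63, 7.78 and 9.76 with LPS, and 2.59, 1.86 and 2.14 with IL-4+LPS. Control and LPS samples overlapped, IL-4 samples were below both, and IL-4+LPS samples were below all. IL-4 alone lowered Bnip3 1.51-fold (log2 -0.52 ± 0.14, adjusted p = 0.0128), a call lost without IL-4 replicate 2 or IL-4 replicate 3 (adjusted p up to 0.052). In IL-4-pretreated cells LPS lowered it 2.56-fold (-1.05 ± 0.14, adjusted p = 5.32e-05), which is 0.64 below the median row (-0.64). IL-4+LPS was 3.82-fold below LPS (-1.55 ± 0.14, adjusted p = 1.41e-05), and the interaction was -1.03 ± 0.19 (adjusted p = 0.00798). LPS without IL-4 gave -0.02 (95% interval -0.32 to 0.29), against 0.35 with median scaling (adjusted p = 0.0502) and 0.40 with quantile normalization (adjusted p = 0.0208). The level of Bnip3 is uncertain because 62.4% of its 50-base words occur in other genes, with 44.9% in the lincRNA AC160336.1 and 21.0% in the antisense gene Gm45507.

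Ddit4 (chr10:59949675-59951770, minus strand), a HIF-1 and stress target whose product REDD1 restrains the growth kinase complex mTORC1, was, like Hif1a, highest with LPS, but at a low level. It was at 0.729, 0.756 and 0.630 FPKM in control, 0.622, 0.537 and 0.773 with IL-4, 1.25, 3.44 and 2.39 with LPS, and 0.227, 0.576 and 0.540 with IL-4+LPS. Every LPS sample exceeded every other sample, with replicate 1 the lowest of the LPS group. LPS raised Ddit4 3.35-fold in mean FPKM (log2 0.93 ± 0.21, adjusted p = 0.00192), and IL-4+LPS was 5.28-fold below LPS (-1.17 ± 0.21, adjusted p = 0.00163). As 1 FPKM was added to low values, the log2 values understate these ratios. A pseudocount of 0.1 gave -2.13 for IL-4+LPS minus LPS. After IL-4, LPS gave -0.19 (95% interval -0.65 to 0.27). The interaction was -1.12 ± 0.29 (adjusted p = 0.0391), and it missed the threshold in 11 of the 12 fits that leave out a sample (adjusted p up to 0.0975), with differences between -1.38 and -0.89.

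**Figure D2:**
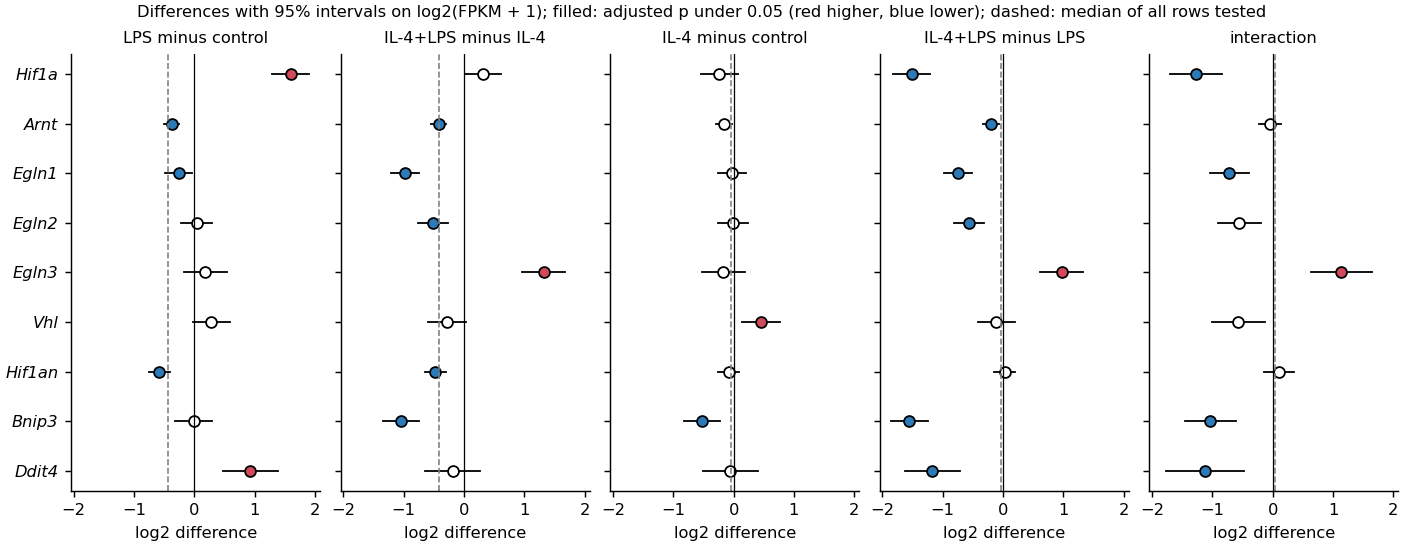
Log2 differences with 95% intervals (horizontal axes) of the 9 members in 5 contrasts, filled where the adjusted p was under 0.05 (red higher, blue lower), with the median of all rows dashed. In IL-4+LPS minus LPS and in the interaction, Egln3 and Hif1an lay right of 0 and the other members left of it. Hif1a, Egln1, Bnip3, Ddit4 and Egln3 were filled in both.

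The counts are over the 7 members at 1 FPKM or more in every sample, and the calls of Egln3 and Ddit4, which had to differ in order to be tested, are named apart. Between LPS and control, 4 of the 7 were called (Hif1a higher, Arnt, Egln1 and Hif1an lower), against 74.6% of all rows (16.9% higher, 57.7% lower). Between IL-4 and control, Vhl was higher and Bnip3 lower, so 2 of 7 were called, against 37.0% of rows (16.0% higher, 21.0% lower). Between IL-4+LPS and IL-4, 5 of 7 were lower (Arnt, Egln1, Egln2, Hif1an and Bnip3), against 72.9% of rows called (15.0% higher, 57.9% lower). Between IL-4+LPS and LPS, 5 of 7 were called, with Hif1a, Arnt, Egln1, Egln2 and Bnip3 all lower, against 30.9% of rows (15.0% higher, 15.8% lower). The interaction was called for 3 of 7 (Hif1a, Egln1 and Bnip3, all lower), against 9.20% of rows (4.58% higher, 4.63% lower). Apart from these, Ddit4 was higher in LPS minus control and lower in IL-4+LPS minus LPS and in the interaction, and Egln3 was higher in both comparisons of IL-4+LPS and in the interaction.

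The counts over the 7 members are thus below or near the share over all rows in the first 3 comparisons and above it in IL-4+LPS minus LPS and in the interaction. Their median difference was -0.56 in IL-4+LPS minus LPS and -0.57 in the interaction, against -0.03 and 0.04 over all rows. The contrasts share samples, so their calls are not separate evidence. The members were chosen with earlier results of these data known, so the excess is a description. In IL-4+LPS minus LPS the members kept their signs under median scaling and quantile normalization, and Arnt alone lost its call, under quantile normalization (adjusted p = 0.0722).

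**Figure D3:**
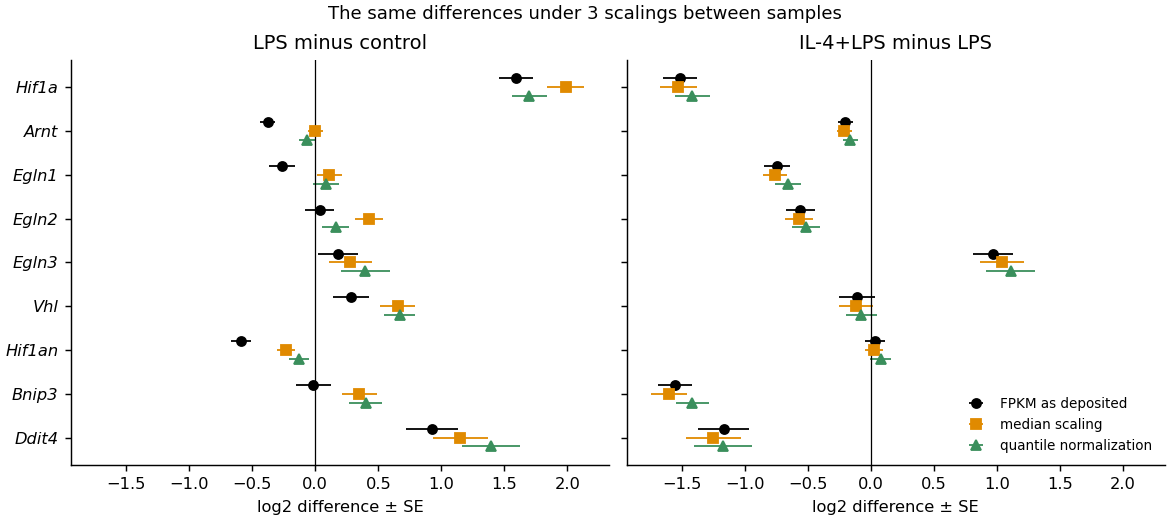
Log2 differences ± SE (horizontal axes) of the 9 members under FPKM as deposited, median scaling and quantile normalization. In LPS minus control the Arnt, Egln1 and Hif1an values moved toward or past 0 with either scaling (Arnt from -0.38 to 0.00 with median scaling), while in IL-4+LPS minus LPS the symbols nearly coincide.

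Around VHL, its ligase partners were measured through 4 genes. Elongin C (Tceb1) rose with LPS by 0.58 (adjusted p = 5.19e-05) and by 0.28 after IL-4 (adjusted p = 0.00751). The scaffold Cul2 rose by 0.58 (adjusted p = 0.000264) and by 0.45 (adjusted p = 0.00154). Elongin B (Tceb2) passed no test, and the RING subunit Rbx1 was lower with LPS (-0.33, adjusted p = 0.0418), a difference that turned to 0.06 with median scaling. None of the 4 was called in IL-4 minus control, in IL-4+LPS minus LPS or in the interaction, against 37.0%, 30.9% and 9.20% of all rows. With the replicate block 2 were higher in each of the first 2 of these, against 21.5% and 20.4%.

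Among 9 tested cofactors and stability regulators of HIF-1 alpha, 2 rose and 3 fell with LPS, against 16.9% and 57.7% of all rows. With median scaling 6 rose and 1 fell, against 27.9% and 37.8% of rows. With IL-4, 2 rose and 3 fell (16.0% and 21.0% of rows), and 2 were higher and 1 lower after both stimuli than after LPS (15.0% and 15.8% of rows; 2 lower with the replicate block). Cited2, whose product competes with HIF-1 alpha for p300 and CBP, rose by 1.11 with LPS (adjusted p = 7.33e-05) and fell with IL-4 (-1.11, adjusted p = 0.000334). Its response to LPS after IL-4 was larger, at 2.55 (adjusted p = 2.18e-07), with an interaction of 1.44 (adjusted p = 0.00255). Siah2, a ligase that degrades EGLN enzymes, rose with LPS by 0.76 (adjusted p = 0.000114) and with IL-4 by 0.37 (adjusted p = 0.0252). The coactivator Ep300 was lower with IL-4 (-0.48, adjusted p = 0.0033) and lower after both stimuli than after LPS alone (-0.47, adjusted p = 0.00428), and its LPS difference of -0.30 turned to 0.09 with median scaling. The chaperone Hsp90ab1 rose with IL-4 by 0.51 (adjusted p = 0.00226) and was higher by 0.34 after both stimuli than after LPS (adjusted p = 0.0232). Stub1, a ubiquitin ligase that works with chaperones, fell with LPS (-0.62, adjusted p = 0.000183) and was higher by 0.35 after both stimuli than after LPS (adjusted p = 0.0199).

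Of 26 other listed HIF targets, 8 rose and 10 fell with LPS, against 16.9% and 57.7% of all rows, and 10 rose and 8 fell with median scaling, against 27.9% and 37.8%. With IL-4, 10 rose and 7 fell (16.0% and 21.0% of rows), and 7 were higher and 10 lower after both stimuli than after LPS (15.0% and 15.8% of rows). The median over the list was -0.24 with LPS, against -0.44 over all rows. Nos2 (inducible nitric oxide synthase) rose with LPS by 5.47 (adjusted p = 3.24e-05), Pfkfb3 (a glycolytic regulator) by 3.54 (adjusted p = 0.000294) and the peptide hormone gene Adm by 2.60 (adjusted p = 0.00171). Nos2 and Adm reached 1 FPKM only in LPS and IL-4+LPS samples, so they had to differ between groups in order to be tested. Both are among the 8 that rose. For both, LPS replicate 1 was the lowest of its group. It was at 16.3 FPKM against 87.9 and 79.7 for Nos2, and at 2.67 against 7.93 and 7.15 for Adm. Vegfa, a textbook HIF target and vessel growth factor, fell with LPS (-1.71, adjusted p = 0.00166), with IL-4 (-1.53, adjusted p = 0.00876), and from LPS to IL-4+LPS (-1.25, adjusted p = 0.0273). Its replicate 1 was the highest of each group, at 16.2 FPKM against 6.3 and 6.6 in control. Its IL-4+LPS samples were at 0.148 to 0.475 FPKM. The list thus moved in both directions in each of these comparisons.

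IL-4 raised the transcriptional repressor gene Bhlhe40 by 3.46 (adjusted p = 4.15e-08) and the transferrin receptor gene Tfrc by 2.90 (adjusted p = 1.9e-07), and lowered Ndrg1 (-1.54, adjusted p = 0.00397). After both stimuli, against LPS, these 3 genes differed by 3.02 (adjusted p = 1.08e-07), 2.86 (adjusted p = 1.91e-07) and -1.95 (adjusted p = 0.00112). Pfkfb3 was at 44.7, 175 and 172 FPKM in LPS and at 5.47, 29.4 and 24.3 in IL-4+LPS (log2 difference -2.71, adjusted p = 0.00608). Replicate 1 was the lowest of both groups. The interaction was negative and called for 5 of the 26 targets, against 4.63% of rows, and positive for 0, against 4.58%. The list was chosen with earlier results of these data known. These 5 are named after their values were seen: the glucose transporter Slc2a1 (-1.37, adjusted p = 0.00108), the lactate exporter Slc16a3 (-1.41, adjusted p = 0.00151), the glycolytic enzymes Hk2 (-1.59, adjusted p = 0.00653) and Pfkl (-0.82, adjusted p = 0.00706), and Ankrd37 (-1.57, adjusted p = 0.0131). Slc16a3 stood at 41.2, 53.5 and 54.6 FPKM in LPS and at 10.4, 14.2 and 14.5 in IL-4+LPS, so these groups did not overlap.

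**Figure D4:**
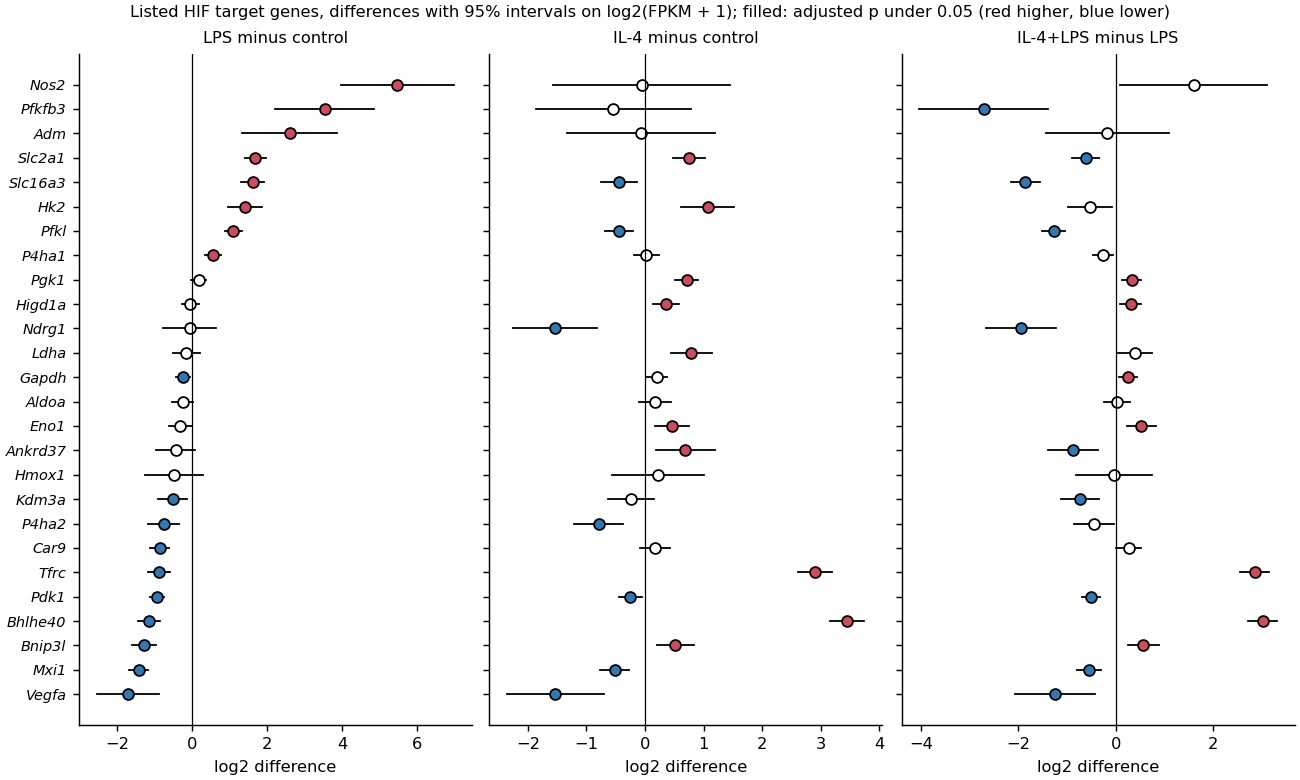
Log2 differences with 95% intervals (horizontal axes, each panel on its own scale) of the 26 other listed HIF targets, ordered by LPS minus control and filled where the adjusted p was under 0.05 (red higher, blue lower). In LPS minus control 8 genes were higher and 10 lower, and in IL-4+LPS minus LPS 7 were higher and 10 lower.

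Beside Bnip3, 5 mitophagy genes were tested, and 4 fell with LPS, against 57.7% of all rows (3 with median scaling, against 37.8%). With LPS, the receptor gene Bnip3l (-1.28, adjusted p = 1.43e-05), the kinase gene Pink1 (-1.10, adjusted p = 0.000392), Map1lc3b (-1.23, adjusted p = 5.27e-08) and Fundc1 (-0.76, adjusted p = 0.00131), which was named after its values were seen, fell and the adaptor gene Sqstm1 rose by 1.96 (adjusted p = 3.62e-08). With IL-4, Pink1 (-0.71, adjusted p = 0.0149), Sqstm1 (-0.33, adjusted p = 0.0192) and Map1lc3b (-0.23, adjusted p = 0.0139) fell, against 21.0% of rows. Bnip3l, the closest paralog of Bnip3, rose with IL-4 by 0.52 (adjusted p = 0.0168) and was higher after both stimuli than after LPS by 0.57 (adjusted p = 0.012), where Bnip3 was lower. Neither the interaction of Bnip3l (0.05, adjusted p = 0.916) nor that of any other of the 5 was called, against 9.20% of all rows. With the replicate block 1 was higher, against 10.2%.

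Around DDIT4, 9 genes of mTORC1 and its brakes were tested, and 8 fell with LPS, against 57.7% of all rows (6 with median scaling, against 37.8%). The sestrin genes Sesn1 (-4.59, adjusted p = 1.59e-05) and Sesn2 (-1.49, adjusted p = 1.81e-06), Deptor (-1.27, adjusted p = 9.23e-05) and Tsc1 (-1.12, adjusted p = 4.64e-06) fell most, and each encodes a brake on mTORC1. Sesn1 was at 109.7 to 117 FPKM in control and at 1.93 to 9.87 FPKM in LPS. Ddit4, another brake, rose with LPS. With IL-4, Sesn2 (-0.59, adjusted p = 0.00445), Sesn3 (-0.43, adjusted p = 0.0367) and Rptor (-0.28, adjusted p = 0.0279), which encodes an mTORC1 subunit, fell, and Rheb, an activator of mTORC1, rose by 0.36 (adjusted p = 0.0192). Sesn3 reached 1 FPKM in control samples alone, so it had to differ between groups in order to be tested. It is also among the 8 that fell with LPS. None of the 9 was called in IL-4+LPS minus LPS (1 lower with median scaling or the replicate block), against 30.9% of all rows. The interaction also called none (1 higher and 1 lower with the block), against 9.20%.

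The rows whose pattern over the 12 samples was most like each member were found by Pearson's r of log2(FPKM + 1) among 10254 rows. They are given as a description, since the samples share groups. Nearest to Hif1a were Zfp281 (0.986), Nox1 (0.985) and Ifitm7 (0.984), and nearest to Hif1an were Tex264 (0.995), Orai3 (0.995) and Tom1 (0.994). Arnt was most like Arid3a (0.991), Egln1 like Nfatc3 (0.980), Egln2 like Capn2 (0.965), Egln3 like Sptan1 (0.981), Bnip3 like Pstpip1 (0.970) and Ddit4 like Sdc1 (0.956). Vhl had the weakest nearest row, Ptgir (0.879).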

How the data were processed

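Poly-A RNA from 12 BMDM samples was sequenced. The authors deposited 1 table per sample of FPKM values made with TopHat2 (2.0.7) and Cufflinks (2.0.2) on mm10, per the labels. The gene annotation is not given in the sources used here, no scaling between samples is described, and fragment counts were not used here, so absolute depth is unknown. An FPKM is relative to its own sample, so a shift in RNA composition moves every gene. Relative depth was read from the steps between low values. No 2 samples held identical values.

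Rows at 1 FPKM or more in at least 1 sample (11191 of 23847) were transformed to log2(FPKM + 1) and fitted with limma 3.58.1 in R 4.3.3 as group means over all samples, with an intensity trend. The interaction compares the responses to LPS in pretreated and naive cells (pretreated minus naive). Same-numbered LPS and IL-4+LPS samples deviated together (r of 0.119, 0.181 and 0.386), so the replicate block is given in that comparison where it changed a count. LPS replicate 2 with IL-4+LPS replicate 3 (0.22) and LPS replicate 3 with IL-4+LPS replicate 2 (0.13) did so as well. Replicate 1 samples deviated together across all groups (0.133 to 0.386). The script was tested on simulated data. Members and gene lists were chosen with earlier results of these data known, and list genes are named if among the 4 largest called changes in LPS minus control, IL-4 minus control or IL-4+LPS minus LPS. Shared sequence was measured in 50-base words of GENCODE transcripts, and promoters came from RefSeq (GRCm38.p6). The alternatives were a pseudocount of 0.1, no filter, a filter in 3 samples, quantile normalization, median scaling, no trend, only the compared groups, a replicate block, unadjusted p, a 2-fold minimum and each sample left out. A fit of replicates 2 and 3 was added after seeing the data. Figures used matplotlib 3.10.9 in Python 3.11.15.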

Additional observations from a re-analysis of the deposited data

Results flagged for a closer look

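The LPS response differed between IL-4-pretreated and naive cells, by the limma interaction test at an adjusted p under 0.05, for 3 of the 7 members at 1 FPKM or more in every sample, against 9.20% of all rows (4.63% lower). The members were chosen with earlier results of these data known. The log2 difference was -1.28 for Hif1a, -1.03 for Bnip3 and -0.72 for Egln1. It was also past the threshold for Ddit4, at -1.12, and Egln3, at 1.14, which entered the test only through their highest group. The interactions of Hif1a, Bnip3 and Egln1 stayed past the threshold in all 12 fits that leave out a sample, and that of Ddit4 did not. That of Egln3 also stayed, but Egln3 entered only through IL-4+LPS, so these fits are no check on it. With replicates 2 and 3 alone, chosen after seeing the data, the differences were -1.36 for Hif1a, -1.12 for Bnip3, -0.80 for Egln1, -1.28 for Ddit4 and 1.21 for Egln3. Each passed, in a fit that called 13.2% of rows higher and 12.4% lower. For Ddit4 and Egln3 this is a description only.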

How the results depend on the processing

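Counts are of the 9 members called higher and lower, Egln3 and Ddit4 included. Both had to differ between groups in order to be tested, so counts that hold them are a description. In the main fit, Ddit4 was among the higher in LPS minus control and among the lower in IL-4+LPS minus LPS. Egln3 was the higher member in both comparisons of IL-4+LPS. Shares are of all rows called higher and lower in the same fit. In LPS minus control the counts were 2 and 3, became 4 and 0 with quantile normalization, 4 and 1 with median scaling, and 1 and 0 with a 2-fold minimum. The shares were 16.9% and 57.7%, 25.9% and 38.7% with quantile normalization, 27.9% and 37.8% with median scaling, and 7.89% and 19.0% at 2-fold. In IL-4 minus control the counts were 1 and 1, with 0 higher and 2 lower with no filter, 2 lower with median scaling, the replicate block or unadjusted p, 0 and 0 with a 2-fold minimum, and 0 to 1 each way when 1 sample was left out. The shares were 16.0% and 21.0%, 6.87% and 9.50% with no filter, and 15.2% and 21.0% with median scaling. They were 21.5% and 28.4% with the block, 19.6% and 25.8% with unadjusted p, and 2.76% and 3.49% at 2-fold. In IL-4+LPS minus IL-4 the counts were 1 and 5, with 2 and 3 under quantile normalization, 2 and 2 under median scaling, 2 higher with only the compared groups, replicates 2 and 3 or unadjusted p, 1 lower with a 2-fold minimum, and 1 to 2 higher when 1 sample was left out. The shares were 15.0% and 57.9%, 22.0% and 37.3% with quantile normalization, 25.6% and 33.5% with median scaling, and 7.52% and 15.1% at 2-fold. The higher share was 14.5% with only the compared groups, 17.4% with replicates 2 and 3, and 15.6% with unadjusted p. In IL-4+LPS minus LPS, 1 and 6 became 0 and 3 with a 2-fold minimum, while the shares went from 15.0% and 15.8% to 2.71% and 2.97%.

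The other listed genes are those tested in the lists above, with Bnip3l counted once, and shares are again over all rows. Nos2, Adm, Vegfa, P4ha2, Ankrd37, Sesn3 and Deptor reached 1 FPKM in some groups only, so counts that hold them are a description. LPS minus control gave 13 higher and 25 lower (16.9% and 57.7% of rows). Median scaling gave 20 higher (27.9%) and a 2-fold minimum 10 lower (19.0%). IL-4 minus control gave 13 and 16 (16.0% and 21.0%), with 3 and 3 at 2-fold (2.76% and 3.49%). Without 1 sample, 9 to 17 were lower (15.6% to 23.1%). IL-4+LPS minus IL-4 gave 10 and 24 (15.0% and 57.9%), with 18 and 14 under median scaling (25.6% and 33.5%). At 2-fold it gave 4 and 9 (7.52% and 15.1%). IL-4+LPS minus LPS gave 9 and 11 (15.0% and 15.8%). These became 4 higher with only the compared groups (11.8%) and 14 and 18 with replicates 2 and 3 (21.0% and 25.9%). They were 2 and 5 at 2-fold (2.71% and 2.97%), with 17 lower with the block (23.8%) or unadjusted p (21.4%). Without 1 sample, 5 to 10 were higher (11.9% to 15.7%). The interaction gave 1 and 5 (4.58% and 4.63%), with 2 higher under quantile normalization (5.00%) and 3 and 10 with the block (10.2% and 9.78%). With replicates 2 and 3 it gave 6 and 14 (13.2% and 12.4%), and with unadjusted p 4 and 11 (12.9% and 11.3%). Without 1 sample it gave 1 to 2 and 5 to 8 (2.78% to 5.58% and 2.98% to 5.83%).

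These differences changed sign. With median scaling, LPS minus control was 0.0001 for Arnt, 0.11 for Egln1, 0.35 for Bnip3, 0.056 for Rbx1 and 0.092 for Ep300, and IL-4+LPS minus IL-4 was 0.10 for Vhl. With quantile normalization, LPS minus control was 0.085 for Egln1 and 0.40 for Bnip3, IL-4 minus control was 0.016 for Egln1 and 0.073 for Ddit4, and IL-4+LPS minus IL-4 was 0.052 for Vhl and 0.15 for Ddit4. With replicates 2 and 3, IL-4 minus control was 0.0026 for Egln2, IL-4+LPS minus LPS -0.0081 for Hif1an and LPS minus control 0.11 for Bnip3. Without 1 sample, IL-4 minus control ran from -0.097 to 0.036 for Egln1 and from -0.089 to 0.080 for Egln2, and LPS minus control from -0.042 to 0.086 for Egln2 and from -0.12 to 0.052 for Bnip3. The causes were not tested.

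Same-numbered samples correlated by 0.0024 to 0.386 (11 of 18 pairs over 0.1) and 7 of 12 samples correlated best with their own number. Replicate 1 samples deviated together across all groups (r of 0.133 to 0.386). Each correlated negatively with every replicate 2 or 3 sample of another group. Within groups, replicates 2 and 3 were most alike (r of 0.9735 to 0.9828, against 0.9544 to 0.9617 with replicate 1). The labels do not say what replicate 1 samples share. The main fit holds no term for this offset, so its spread includes it. The 3 same-numbered pairs of LPS with IL-4+LPS were all over 0.1, and in that comparison the block changed no member's call. Replicates 2 and 3 of these groups also correlated over 0.1 across numbers (0.22 and 0.13). With the replicate block, of 45 member results 42 kept their call, 3 passed newly (Arnt in IL-4 minus control, -0.16, adjusted p = 0.0294, and the interactions of Egln2, -0.55, adjusted p = 0.00244, and Vhl, -0.57, adjusted p = 0.0468) and 0 were lost. Low values (Egln3, Ddit4) carry the larger error at these depths. The interaction could not be fitted from only 2 groups.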
